A study of Mus musculus with 16 samples.

Results

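DNCB (2,4-dinitrochlorobenzene) dermatitis on a low AhR ligand diet was studied in 8 of the 16 skin samples of the series: the 4 samples labelled with the diet and AD (LowAhR+AD) and the 4 labelled with the diet alone (LowAhR). All were dorsal skin of wild-type male C57BL/6N mice, bought at 3 weeks of age and kept for 1 week before the diet, and both groups lived for 12 weeks on a diet low in AhR ligands and on bedding free of them. LowAhR+AD mice were also painted on the back with 1% DNCB in acetone and olive oil 2 times a week, starting after 2 weeks of the diet. The diet was thus shared by both groups, and no group received DNCB on normal chow. A vehicle treatment of the LowAhR mice is not given in the sources used here, so DNCB, its solvent and handling of the skin cannot be told apart. The other 8 samples were Cont mice on normal chow and LowAhR+AD+BJ mice, which had the diet, DNCB and the oral herbal extract BJIKT at 1 g/kg per day.

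DNCB is a hapten, a small reactive molecule that binds to skin proteins and so makes them targets of the immune system. Skin that is painted with it repeatedly thickens. Basal keratinocytes, which carry the keratins Krt5 and Krt14, divide more, and the cells above them exchange the usual keratins Krt1 and Krt10 for the stress keratins Krt6a, Krt6b, Krt16 and Krt17. Such keratinocytes also release chemokines, alarm cytokines and antimicrobial proteins that draw leukocytes from the blood. The aryl hydrocarbon receptor (AhR) is a ligand-activated transcription factor of keratinocytes and skin leukocytes, and food and plant bedding are sources of its ligands.

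Each mouse gave 1 library, made with QuantSeq, a protocol that reads only the 3′ end of each messenger RNA. Totals were 7436315 to 8773876 counts in LowAhR and 11336051 to 13467477 in LowAhR+AD, a log2 ratio of group means of 0.626 without overlap (two-sided exact permutation p = 0.0286, the smallest this design allows). Levels below are CPM, the counts scaled to a common library size by the TMM factors, always in the order of replicates 1 to 4. Genes were tested with the quasi-likelihood test of edgeR in a model of all 16 libraries. A gene was called where its p, adjusted by Benjamini-Hochberg, was under 0.05. Fold changes are log2 values, for 4 mice a group. The value after ± is a standard error derived from that test, the size of the fold change divided by the square root of its F statistic. LowAhR+AD replicate 1 stood apart from the other 3 samples of its group. It had 9722 of 23282 rows at 0 against 6910 to 8192, and limma gave it a quality weight of 0.132 against 0.713 to 2.58 in the other 15 libraries, so results are also given without it. The keratinocyte markers Krt5 and Krt14 were present at 742 CPM or more in all 8 samples, whereas the B cell marker Ms4a1 was at 0 in all of them. In bulk skin, fewer cells of a type and less RNA per cell cannot be told apart.

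Of 14854 genes tested, 953 were called higher (6.42%) and 923 lower (6.21%) in LowAhR+AD than in LowAhR, 12.6% in all. The groups did not overlap at 761 of the higher genes (5.12% of those tested) and 830 of the lower genes (5.59%), while 8.92% and 9.85% of all tested genes had every treated mouse above or below every untreated one. Of the calls, 399 higher and 465 lower ones held with each of the 8 libraries left out in turn, and 317 and 438 held in a model of these 8 libraries alone, in which 765 genes were called. With 1 library left out the count ranged from 1128 to 2015, and it was 1157, 1128 and 1244 without LowAhR replicates 1, 2 and 3. The 56 gene lists used here hold 1036 tested genes. Counted in 1 direction at a time, the largest shares of members called lower were in skeletal muscle and adipocyte genes, and the largest shares called higher were in stress keratins, genes of the neutrophil list, cell cycle and ribosome biogenesis. The median log2 fold change of all tested genes was 0.04. Unless a sentence says otherwise, the 2 groups did not overlap for the genes named with their values below.

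**Figure D1:**
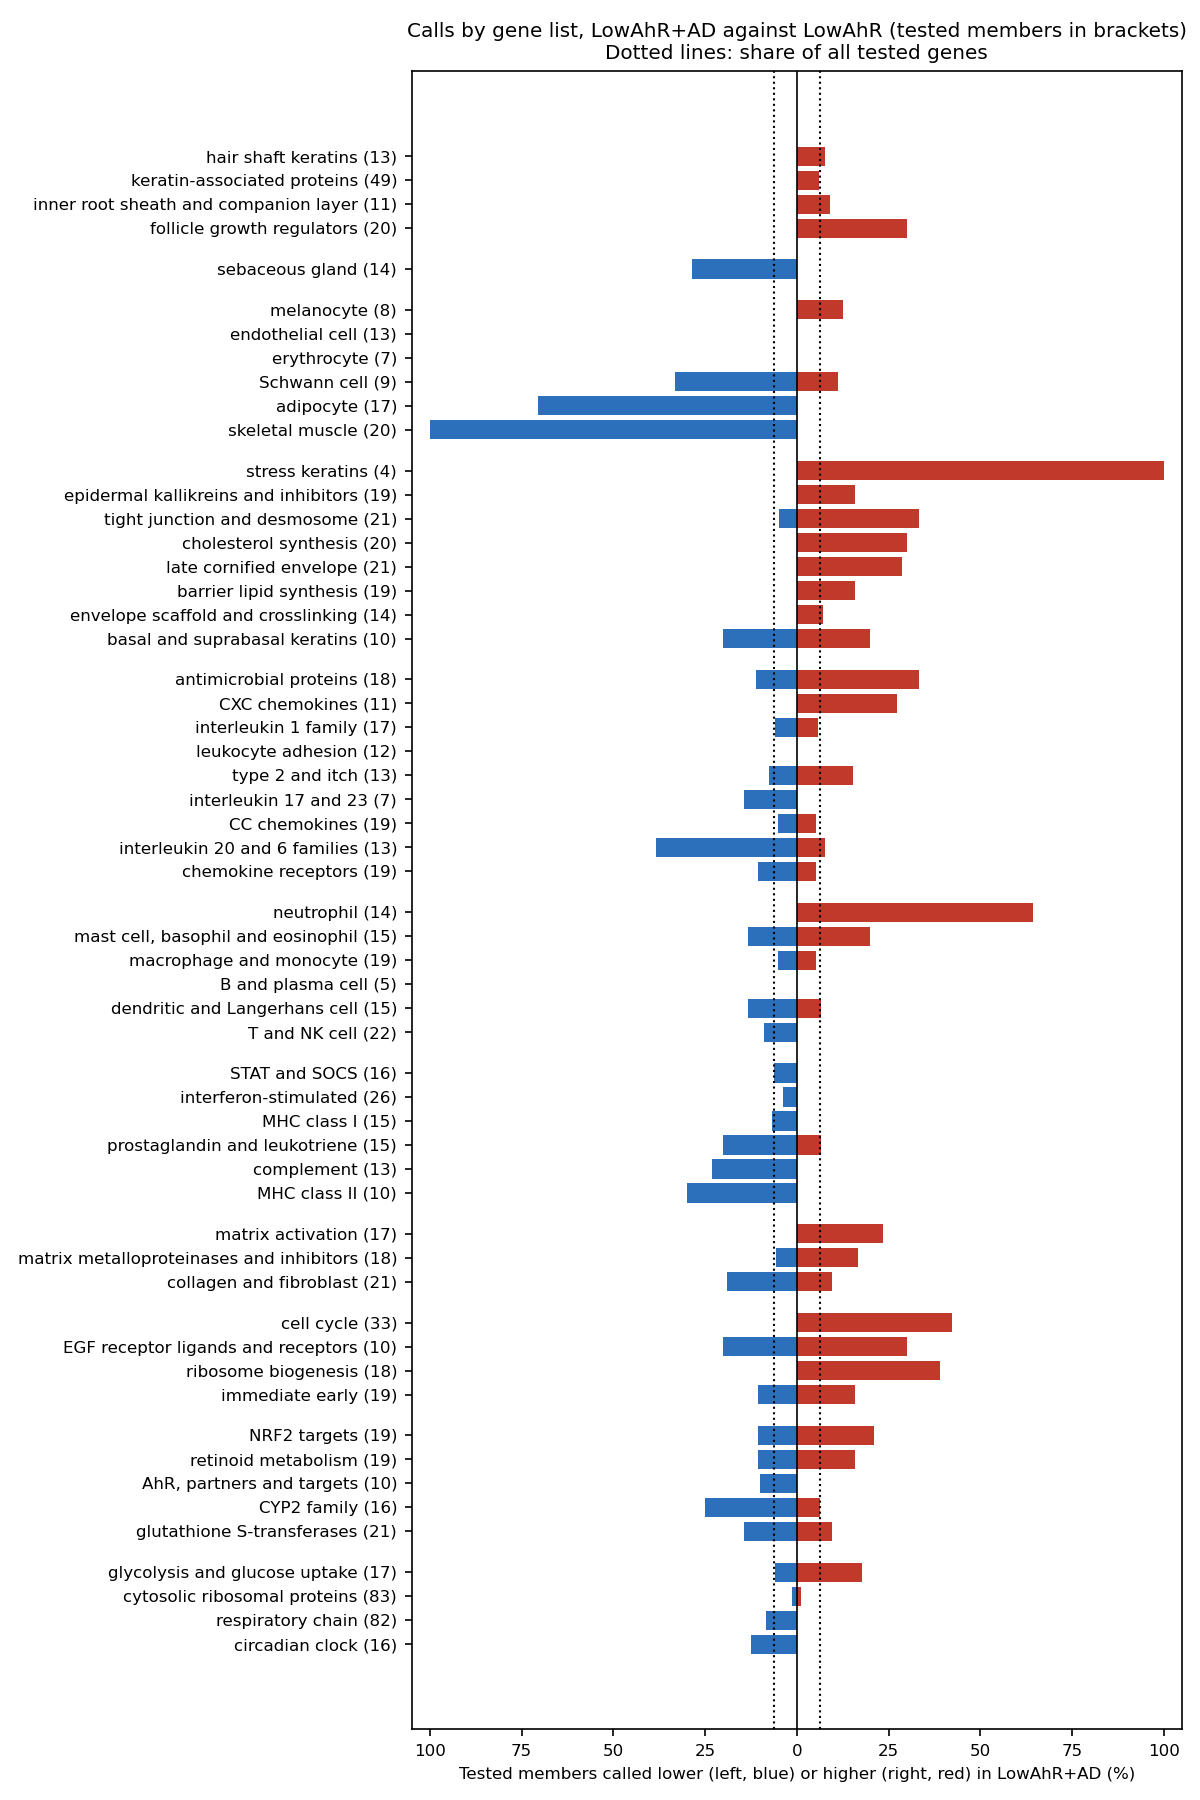
Share of the tested members of each of 56 gene lists (rows, number of tested members in brackets) that were called lower (blue, to the left) or higher (red, to the right) in LowAhR+AD than in LowAhR, in percent, with dotted lines at the shares of all 14854 tested genes, 6.21% lower and 6.42% higher. Skeletal muscle reached 20 of 20 members lower and the stress keratins 4 of 4 higher, whereas edgeR called 0 of 13 endothelial and 0 of 7 erythrocyte genes (4 and 0 at an unadjusted p under 0.05, 2 and 0 by DESeq2, and neither list by limma voom).

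The largest changes were ranked among called genes without overlap and with a mean of at least 10 CPM in 1 of the groups. The 10 largest rises included the chemokine Cxcl5 and the cytokine Il24, given further below, a chitinase-like protein, acute-phase proteins and a stress keratin. The 10 largest falls included a myosin light chain kinase, a skin keratin and a hepcidin-like peptide. Mucl1, Dab1 and Apol7a fell more than these but are not described here. Chil3, a chitinase-like protein of activated myeloid cells, had no count in any LowAhR mouse and was at 14.2, 45.8, 13.4 and 93.2 CPM in LowAhR+AD. Set against a floor of 3 counts over the LowAhR group this was at least 428-fold higher (adjusted p = 0.00159). Saa3, a serum amyloid A protein made in inflamed tissue, was at 3.79, 7.81, 8.85 and 3.82 CPM in LowAhR and at 562, 3449.9, 101 and 3042 CPM in LowAhR+AD. The groups did not overlap, although replicate 3 of the treated mice lay far below replicates 2 and 4 (8.20 ± 1.11, adjusted p = 0.000304). Its relatives Saa1 and Saa2 had 3 and 1 counts in all LowAhR mice together and 1315 and 1025 in LowAhR+AD, ratios, corrected for library size, of 271 (95% counting interval 92.5 to 1320) and of 633 (113 to 25000). These intervals cover counting error only. With limma voom, Chil3, Saa1 and Saa2 missed the threshold (adjusted p = 0.0778, 0.158 and 0.136).

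Saa1 and Saa2 lie side by side on chromosome 7 and are near-identical copies, so the split of reads between them is uncertain. Their promoters are shown because both genes went from almost no counts to a clear signal in the same mice. The windows run from 250 bases before to 50 bases after the RefSeq start site in GRCm38.p6, at chr7:46742931-46743230 on the minus strand for Saa1 and at chr7:46751583-46751882 on the plus strand for Saa2. Capitals mark the bases that differ between the pair in a global alignment.
Saa1: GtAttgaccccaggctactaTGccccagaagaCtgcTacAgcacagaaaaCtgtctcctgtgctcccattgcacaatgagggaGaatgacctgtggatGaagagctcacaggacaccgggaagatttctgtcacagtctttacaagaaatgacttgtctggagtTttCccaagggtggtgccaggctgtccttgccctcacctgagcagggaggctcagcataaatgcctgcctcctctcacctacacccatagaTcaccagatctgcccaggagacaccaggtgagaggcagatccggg
Saa2: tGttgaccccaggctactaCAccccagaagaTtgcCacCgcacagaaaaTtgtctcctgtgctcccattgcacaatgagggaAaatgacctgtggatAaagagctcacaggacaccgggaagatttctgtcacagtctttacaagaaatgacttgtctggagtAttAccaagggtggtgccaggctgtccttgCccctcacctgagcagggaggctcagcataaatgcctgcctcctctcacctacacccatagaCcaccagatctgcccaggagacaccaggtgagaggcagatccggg
The pair was identical at 287 of 301 aligned columns (95.3%). Against the same window of Saa3, which also rose, Saa1 was identical at 51.3% and Saa2 at 51.1% of aligned columns.

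Among the falls, Mylk4, a myosin light chain kinase, went from 22.0, 57.7, 54.4 and 87.5 CPM to 0.687, 1.15, 0.0777 and 0.321 CPM (-6.61 ± 0.81, adjusted p = 0.000148). Krt77, a keratin of the interfollicular epidermis and sweat duct, was at 15.3, 11.5, 18.1 and 13.1 CPM in LowAhR and at 0, 0.0821, 0.389 and 0.161 CPM in LowAhR+AD (-6.41 ± 1.16, adjusted p = 0.0023). Hamp2, a hepcidin-like peptide, had 377, 509, 123 and 168 CPM in LowAhR and 2.82, 0.410, 11.3 and 0.883 CPM in LowAhR+AD (-6.25 ± 1.37, adjusted p = 0.00712). H2-M2, a nonclassical MHC class I gene, fell from 83.7, 99.6, 60.4 and 33.5 CPM to 0, 1.56, 3.26 and 2.41 CPM (-5.25 ± 0.95, adjusted p = 0.00237). All LowAhR+AD mice, not only replicate 1, were below every LowAhR mouse for these 4 genes, and each call held with any of the 8 libraries left out and in the model of the 8 libraries alone. Filip1, which encodes a filamin-binding protein, did so too (-5.47 ± 1.11, adjusted p = 0.00458). Il22ra2, the decoy receptor that binds the cytokine IL-22, was at 17.4, 13.3, 11.1 and 10.1 CPM in LowAhR and at 0, 0, 1.55 and 0 CPM in LowAhR+AD (-5.01 ± 1.37, adjusted p = 0.0235). Its call was lost without LowAhR replicate 1, LowAhR+AD replicate 2 or LowAhR+AD replicate 4 (adjusted p up to 0.0578).

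The stress keratins of the epidermis rose in every treated mouse. All 4 were called higher, against 6.42% of all genes, and all 4 held with any library left out, without LowAhR+AD replicate 1 and in the model of the 8 libraries alone. Krt6a (chr15:101689928-101694305, GRCm38.p6) was at 321, 77.9, 216 and 600.5 CPM in LowAhR and at 14426, 19556, 4082 and 13551 CPM in LowAhR+AD. The lowest treated mouse thus lay well above the highest untreated one (5.41 ± 0.65, adjusted p = 0.000148). Krt6b, its neighbour and close copy, was at 23.5, 15.5, 3.38 and 2.27 CPM against 143, 7210.4, 4625 and 3231 CPM. LowAhR+AD replicate 1, high for Krt6a, was by far the lowest treated mouse for Krt6b (8.41 ± 1.28, adjusted p = 0.000773). Krt16, the partner of Krt6 in filaments, went from 10.96, 4.35, 29.9 and 37.0 CPM to 322, 1673, 1004 and 1166 CPM (5.66 ± 0.68, adjusted p = 0.000148). Krt17, which basal follicle cells carry even in resting skin, started higher, at 588, 428, 734 and 1096 CPM, and reached 4923, 4559, 1299.7 and 4054 CPM, with replicate 3 the lowest treated mouse (2.38 ± 0.38, adjusted p = 0.000967).

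The basal pair Krt14 and Krt5 rose, while the suprabasal Krt10 split the treated mice. Krt14 was at 742, 801, 993 and 1026 CPM in LowAhR and at 3353, 3305, 3269 and 4193 CPM in LowAhR+AD, a narrow range in both groups (1.99 ± 0.27, adjusted p = 0.000301). Krt5, its filament partner, went from 1138, 1014, 1165 and 1233 CPM to 6185, 2088, 1530.0 and 2132 CPM, with replicate 1 far above the other treated mice (1.39 ± 0.35, adjusted p = 0.0148, and 0.75 ± 0.21 without it). Its call was lost in the model of the 8 libraries alone (adjusted p = 0.086). Krt10, the main keratin of differentiating cells, was at 3002, 2932, 1854 and 1857 CPM in LowAhR and at 20.2, 206, 4021 and 151 CPM in LowAhR+AD. Of the treated mice 3 lay far below the LowAhR range and replicate 3 lay above it, and the difference did not pass the test (-1.13 ± 1.02, adjusted p = 0.507). Over the 10 genes of this list 2 were called higher and 2 lower, with a median of -0.71, which was -1.51 without LowAhR+AD replicate 3.

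The late cornified envelope genes encode small proteins that are crosslinked into the surface of dead keratinocytes. Of 21 tested, 6 were called higher and 0 lower (median 0.37), and all 6 belonged to the Lce3 group, the group known to come up in damaged skin. Lce3d was at 0.135, 0.384, 2.99 and 18.1 CPM in LowAhR and at 19.3, 209, 107 and 71.8 CPM in LowAhR+AD (4.21 ± 0.97, adjusted p = 0.00965), and Lce3f at 1.49, 0.256, 2.34 and 0.597 CPM against 3.66, 81.0, 48.6 and 26.3 CPM (5.09 ± 1.00, adjusted p = 0.00382). Neither pair of groups overlapped. Only these 2 of the 21 members had every treated mouse above every LowAhR mouse, so the groups overlapped for the other Lce3 calls. The abundant Lce1 genes were not called: Lce1a1 was at 1545, 1402, 1277 and 728 CPM in LowAhR and at 54.4, 683, 2828 and 191 CPM in LowAhR+AD (-0.40 ± 0.77, adjusted p = 0.782). As with Krt10, replicate 3 was the 1 treated mouse above LowAhR for Lce1a1, and the whole list summed to 6527, 6542, 5242 and 3872 CPM in LowAhR and to 226, 3296, 14374 and 1229 CPM in LowAhR+AD. Without treated replicate 3, 6 members were called higher and 7 lower, and the median was -1.77. Of the 6 calls, 4 held with each library left out and 1, Lce3f, in the model of the 8 libraries alone, where Lce3d had an adjusted p of 0.0614. With limma voom Lce3d and Lce3f missed the threshold (adjusted p = 0.0914 and 0.255). Tgm3, a transglutaminase that crosslinks the envelope, went from 21.6, 21.1, 20.6 and 75.5 CPM to 78.9, 237, 151 and 138 CPM (2.12 ± 0.52, adjusted p = 0.0137) and was the 1 member called of the 14 envelope scaffold and crosslinking genes (1 to 5 calls with 1 library left out, 2, 5 and 2 without LowAhR replicate 4 and LowAhR+AD replicates 1 and 3).

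Among genes of cell contacts more rose than fell. Of 21 tight junction and desmosome genes 7 were called higher and 1 lower, with a median of 0.71 (5 to 10 calls with 1 library left out, 5 without LowAhR replicate 2). Among the desmosome plaque proteins, Jup (plakoglobin) was at 92.9, 102, 99.8 and 140.1 CPM in LowAhR and at 265, 236, 208 and 179 CPM in LowAhR+AD (1.03 ± 0.22, adjusted p = 0.00604), Pkp1 at 236, 199, 179.8 and 154 CPM against 410.2, 415, 297 and 310.4 CPM, and Pkp3 at 208, 143, 208 and 354 CPM against 509, 479.5, 591 and 437 CPM. Treated mice were thus higher in each of these 3 plaque genes. Pkp1 and Pkp3 (adjusted p = 0.0103 and 0.0113) missed the threshold in the model of the 8 libraries alone, at adjusted p of 0.057 and 0.053. The member that fell was Cgn (cingulin), a linker of the tight junction to actin, at 58.6, 54.0, 40.3 and 47.7 CPM in LowAhR and 5.11, 16.4, 15.6 and 15.7 CPM in LowAhR+AD (-1.92 ± 0.37, adjusted p = 0.00323).

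Of the surface proteases and their inhibitors, 3 of 19 were called higher and 0 lower (median 1.01), and 9 were called higher without LowAhR+AD replicate 1. Slpi, an inhibitor of leukocyte proteases, went from 5.82, 1.92, 2.47 and 7.04 CPM to 85.9, 132, 47.0 and 204 CPM (4.76 ± 0.65, adjusted p = 0.000336). Klk6, a kallikrein protease, was at 64.9, 48.9, 106 and 112 CPM in LowAhR and at 121, 1360.3, 306 and 1259 CPM in LowAhR+AD, so that replicates 2 and 4 stood far above replicates 1 and 3 (3.20 ± 0.55, adjusted p = 0.00181). In barrier lipid synthesis 3 of 19 genes were called higher and 0 lower (median 0.20, 1 to 5 calls with 1 library left out, 1, 1, 1 and 5 without LowAhR replicates 1, 2 and 4 and LowAhR+AD replicate 1). The 1 that held with each library left out was Degs2, which makes the phytoceramides of the horny layer, at 7.85, 10.1, 11.8 and 12.1 CPM in LowAhR and at 39.3, 61.8, 56.7 and 86.8 CPM in LowAhR+AD (2.55 ± 0.34, adjusted p = 0.000287). For cholesterol synthesis and uptake the count was 6 of 20 higher and 0 lower, with a median of 0.45 (3 to 7 calls with 1 library left out, 3, 3 and 3 without LowAhR replicate 2 and LowAhR+AD replicates 1 and 2).

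**Figure D2:**
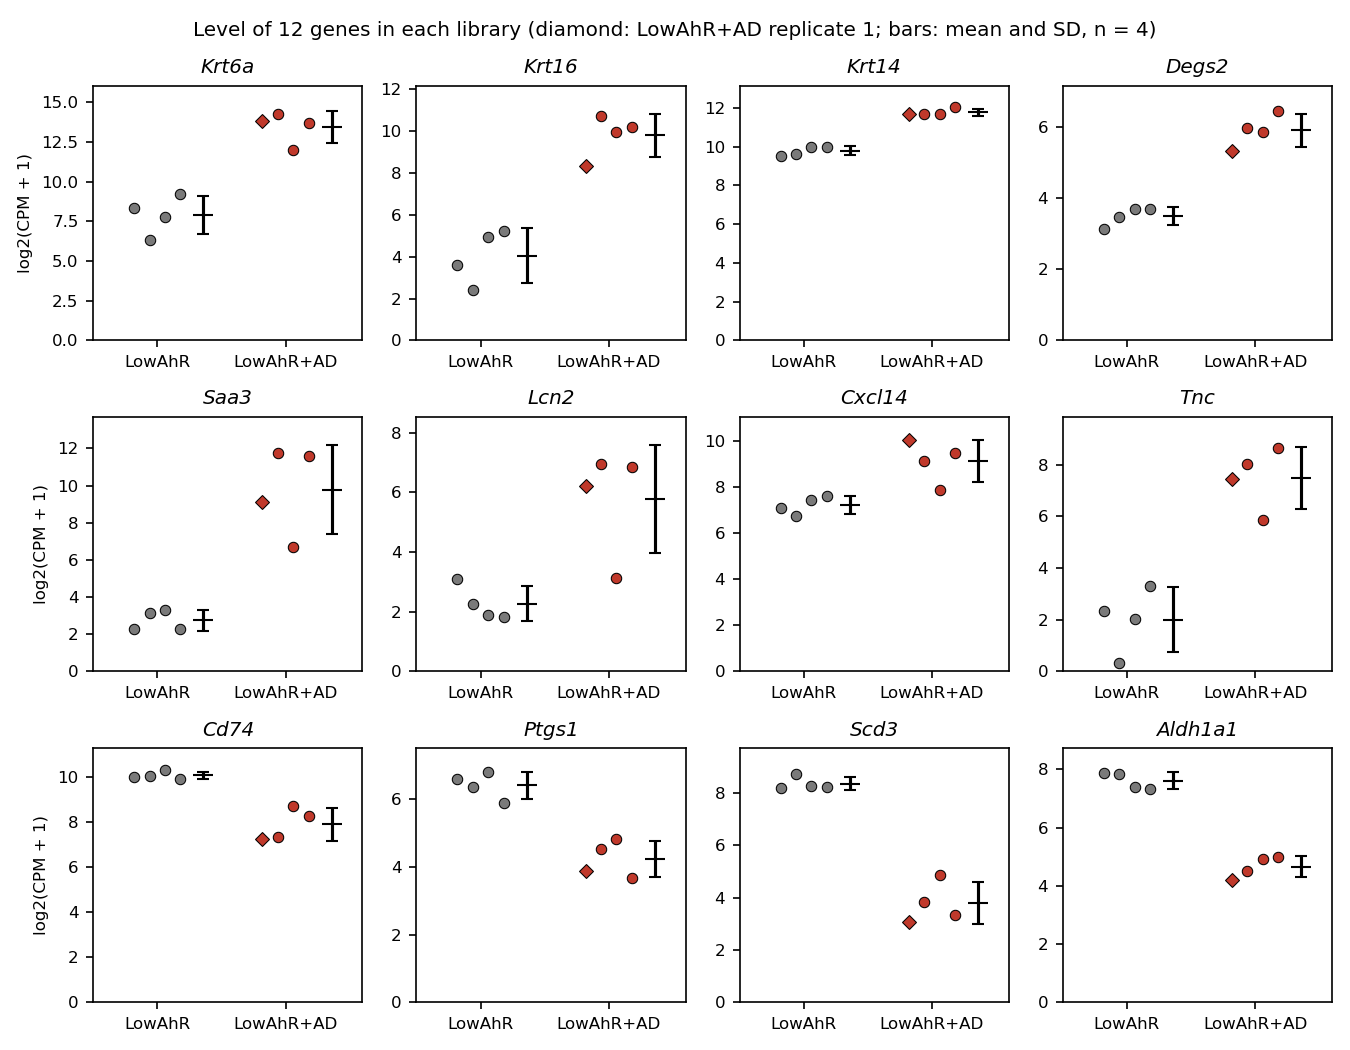
Level of 12 genes in each library, as log2(CPM + 1) on the vertical axis, for the 4 LowAhR mice (grey) and the 4 LowAhR+AD mice (red, replicate 1 as a diamond), with the mean and SD of each group beside the points. The groups do not overlap in any of the 12 panels, and Lcn2 has the smallest gap, between 7.58 CPM in LowAhR replicate 1 and 7.69 CPM in LowAhR+AD replicate 3.

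Genes of dividing and growing cells were higher. Of 33 cell cycle genes 14 were called higher and 0 lower, with a median of 1.17 (7 to 14 calls with 1 library left out, 7, 9 and 8 without LowAhR replicates 1 and 2 and LowAhR+AD replicate 2), and 32 of the 33 had a positive fold change. Summed over the list the level was 469.5, 491, 574 and 614 CPM in LowAhR and 1248, 1252, 1002 and 1089 CPM in LowAhR+AD, with no overlap. Birc5 (survivin), which acts in mitosis, was at 23.9, 20.9, 20.9 and 26.4 CPM against 75.8, 65.3, 61.1 and 58.2 CPM (1.50 ± 0.30, adjusted p = 0.00393). Top2a, a DNA topoisomerase of dividing cells, went from 65.3, 76.7, 114 and 100.4 CPM to 222, 212, 158 and 137 CPM (1.03 ± 0.27, adjusted p = 0.0205), a call lost without LowAhR replicate 1, LowAhR replicate 2 or LowAhR+AD replicate 2 (adjusted p up to 0.0711). Of the 14 calls, 7 held with each library left out, 12 without LowAhR+AD replicate 1 and 6 in the model of the 8 libraries alone. Ribosome biogenesis, the nucleolar work of growing cells, followed with 7 of 18 genes called higher and 0 lower (median 0.83, 3 to 7 calls with 1 library left out, 4, 3 and 3 without LowAhR replicates 1 and 3 and LowAhR+AD replicate 2), of which 2 held with each library left out. The 83 cytosolic ribosomal proteins themselves had 1 call in each direction and a median of 0.00.

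The ligands of the EGF receptor, which drive keratinocyte growth, split by member. Epgn (epigen) was at 7.98, 1.28, 17.7 and 3.34 CPM in LowAhR and at 64.0, 306, 48.1 and 163 CPM in LowAhR+AD (4.26 ± 0.80, adjusted p = 0.003), and Hbegf at 10.8, 4.61, 10.8 and 11.9 CPM against 79.6, 41.5, 17.9 and 65.2 CPM (2.42 ± 0.54, adjusted p = 0.00776). Both rose in every treated mouse. Ereg (epiregulin) went the other way, at 73.0, 62.1, 28.6 and 17.3 CPM in LowAhR against 11.2, 17.3, 24.2 and 9.07 CPM in LowAhR+AD, and the groups overlapped (-1.55 ± 0.44, adjusted p = 0.0261). Its call was lost without LowAhR replicates 1 or 2 or LowAhR+AD replicates 1, 2 or 4 (adjusted p up to 0.101) and in the model of the 8 libraries alone (0.0821). Btc (betacellulin), named here after its values were seen, fell from 39.9, 28.5, 47.2 and 42.8 CPM to 0.0763, 6.24, 6.06 and 4.26 CPM (-3.25 ± 0.63, adjusted p = 0.00355). The receptor Egfr was at 17.6, 21.2, 19.4 and 31.5 CPM in LowAhR and at 28.3, 36.7, 28.5 and 35.5 CPM in LowAhR+AD, overlapped and did not pass the test (0.52 ± 0.28, adjusted p = 0.239). In the list of 10 genes 3 were called higher and 2 lower (median 1.05, 3 to 5 calls with 1 library left out, 3 and 3 without LowAhR replicate 1 and LowAhR+AD replicate 2). Hif1a, the oxygen-sensitive transcription factor, rose from 43.4, 58.5, 57.2 and 41.8 CPM to 161, 120.2, 85.6 and 116 CPM (1.26 ± 0.29, adjusted p = 0.00932), and so did the glycolytic enzyme Pgam1, from 56.7, 45.4, 69.5 and 55.0 CPM to 216, 114, 88.0 and 103 CPM (1.20 ± 0.25, adjusted p = 0.00478). Of 17 glycolysis and glucose uptake genes 3 were called higher and 1 lower (median 0.19). In the mitochondrial respiratory chain 0 of 82 genes were called higher and 7 lower (median -0.16, 4 to 11 calls with 1 library left out, 4, 11 and 11 without LowAhR replicates 2 and 4 and LowAhR+AD replicate 4), and 15 were called with DESeq2. All tested genes had 6.21% called lower.

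Of 18 antimicrobial proteins 6 rose and 2 fell (median 1.36). Besides the Saa genes, Lcn2, which withholds iron from bacteria, was at 7.58, 3.84, 2.73 and 2.51 CPM in LowAhR and at 73.3, 123, 7.69 and 115 CPM in LowAhR+AD (4.26 ± 0.81, adjusted p = 0.00327). Treated replicate 3 lay just above the highest LowAhR mouse. Chil1, another chitinase-like protein, went from 1.35, 12.4, 4.55 and 3.58 CPM to 39.2, 213, 16.4 and 96.9 CPM (4.06 ± 0.68, adjusted p = 0.00138). Replicate 3 was again the lowest treated mouse. Both genes missed the threshold with limma voom in place of edgeR, at adjusted p of 0.185 and 0.0582. Defb6, a beta-defensin of skin, was lower, at 1164, 1182, 1661 and 847 CPM against 65.6, 643, 688 and 396 CPM (-1.44 ± 0.46, adjusted p = 0.0494). Its call was lost without LowAhR replicates 1, 2 or 3 or LowAhR+AD replicates 2 or 4 (adjusted p up to 0.131) and in the model of the 8 libraries alone (0.158).

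Chemokines of the CXC family guide leukocytes, and those near Cxcl1 on chromosome 5 (Cxcl1, Cxcl2, Cxcl5 and Ppbp) act on neutrophils through the receptor Cxcr2. Of 11 tested, 3 were called higher and 0 lower, with a median of 0.46, and the 3 held with each library left out and in the model of the 8 libraries alone. Cxcl2 was at 1.35, 0, 0.260 and 0.597 CPM in LowAhR and at 5.34, 7.55, 14.1 and 22.8 CPM in LowAhR+AD (4.47 ± 1.13, adjusted p = 0.0157). Cxcl14, a chemokine that resting epidermis already makes, rose from 136, 108, 172 and 197 CPM to 1048, 560.2, 230.5 and 718 CPM (2.06 ± 0.36, adjusted p = 0.00192). Cxcl5 had 0 counts in all LowAhR mice and 2944 in LowAhR+AD, at least 606-fold higher (adjusted p = 0.00352). Cxcl2 and Cxcl5 missed the threshold with limma voom (adjusted p = 0.281 and 0.157), while Cxcl14 passed. The remaining 8 were not called by edgeR in all libraries. Cxcl1 was at 0.406, 1.79, 0.650 and 1.19 CPM against 1.22, 10.1, 2.10 and 14.8 CPM (2.78 ± 1.12, adjusted p = 0.11), overlapping at 1 treated mouse and called by DESeq2. Ppbp was at 0, 0, 0.390 and 0.597 CPM against 0, 10.2, 2.02 and 13.6 CPM (4.61 ± 1.64, adjusted p = 0.0709). Its groups overlapped at LowAhR+AD replicate 1, and Ppbp was called without that library (5.03 ± 1.40, adjusted p = 0.0277). Pf4, Cxcl9, Cxcl10, Cxcl12, Cxcl13 and Cxcl16 had log2 fold changes of 0.44, -0.25, -0.13, 0.22, -0.27 and 0.46, with overlapping groups. The receptor Cxcr2 was at 0.406, 0.128, 1.17 and 1.91 CPM in LowAhR and at 0.229, 9.52, 6.53 and 26.0 CPM in LowAhR+AD (3.52 ± 1.00, adjusted p = 0.0269), with replicate 1 as low as untreated mice, and this call was lost without LowAhR replicates 1, 2 or 3 or LowAhR+AD replicate 4 (adjusted p up to 0.114), in the model of the 8 libraries alone (0.104) and with limma voom (0.301).

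The promoters of Cxcl2 and Cxcl14 are shown because both genes were called in every refit with 1 library left out and both carry the letters of the AhR binding core. The windows are chr5:90903649-90903948 on the plus strand and chr13:56296502-56296801 on the minus strand of GRCm38.p6 (RefSeq). Capitals mark matches, on either strand, to the core GCGTG of the xenobiotic response element and to the NF-kB consensus. The NF-kB matches in Cxcl2 overlap each other, and no NF-kB match overlaps a GCGTG match.
Cxcl2: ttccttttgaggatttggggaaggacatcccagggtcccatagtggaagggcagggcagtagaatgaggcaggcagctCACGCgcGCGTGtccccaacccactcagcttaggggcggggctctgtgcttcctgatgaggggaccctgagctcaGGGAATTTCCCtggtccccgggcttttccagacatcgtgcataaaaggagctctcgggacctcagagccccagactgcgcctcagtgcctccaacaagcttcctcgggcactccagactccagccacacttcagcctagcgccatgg
Cxcl14: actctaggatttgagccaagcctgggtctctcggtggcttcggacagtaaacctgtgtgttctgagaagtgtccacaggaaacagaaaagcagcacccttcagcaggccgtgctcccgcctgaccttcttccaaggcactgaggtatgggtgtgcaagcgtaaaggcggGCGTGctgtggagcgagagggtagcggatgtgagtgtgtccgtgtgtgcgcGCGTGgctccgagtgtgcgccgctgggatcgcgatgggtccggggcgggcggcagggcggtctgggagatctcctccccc
Cxcl2 held 2 GCGTG matches, at -172 to -168 and -165 to -161 from the start site, and 2 overlapping NF-kB matches that span -97 to -87. Cxcl14 held 2 GCGTG matches, at -81 to -77 and -30 to -26, and 0 NF-kB matches. Of all 32841 promoter windows of the same length 32.4% hold GCGTG and 8.46% the NF-kB consensus, so the matches are common letters and say nothing of binding.

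Cytokines and their receptors moved in both directions. Il1b, an alarm cytokine of myeloid cells, was at 5.28, 6.66, 20.9 and 5.61 CPM in LowAhR and at 27.2, 26.5, 40.4 and 82.7 CPM in LowAhR+AD (2.20 ± 0.61, adjusted p = 0.0245). The call was lost without LowAhR replicates 1, 2 or 4 or LowAhR+AD replicate 4 (adjusted p up to 0.0824) and with limma voom (0.127). Il1r2, the decoy receptor that soaks up the same cytokine, fell from 192, 244, 158 and 116 CPM to 13.0, 34.0, 58.3 and 40.2 CPM (-2.29 ± 0.46, adjusted p = 0.0042). In the families of Il20 and Il6, 5 of 13 genes were called lower and 1 higher (median -0.55, and -0.22, -0.27 and -0.30 without LowAhR replicate 2, without LowAhR+AD replicate 1 and with sample quality weights), and the 5 lower ones, Il6ra, Il20ra, Il20rb, Il22ra1 and Lifr, were all receptor chains. Of these calls, Il22ra1 was lost without LowAhR replicate 1 or LowAhR+AD replicate 2 (adjusted p up to 0.07), and Lifr was lost in each refit but the one without LowAhR+AD replicate 3 (up to 0.105) and in the model of the 8 libraries alone (0.071). Il6ra, the receptor of interleukin 6, was at 62.2, 74.4, 52.8 and 54.5 CPM against 8.39, 10.5, 13.8 and 6.26 CPM (-2.64 ± 0.36, adjusted p = 0.000336). Il20rb, a receptor chain for Il24 and its relatives, was at 181, 148, 159 and 96.9 CPM against 53.2, 39.5, 102 and 44.9 CPM (-1.29 ± 0.30, adjusted p = 0.0096), with treated replicate 3 inside the LowAhR range. The 1 gene called higher was a ligand of this receptor, Il24, with 0 counts in LowAhR and 904 in LowAhR+AD, at least 186-fold higher (adjusted p = 0.00433, and 0.078 with limma voom).

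The neutrophil list had 9 of 14 tested members called higher and 0 lower (median 3.83), of which 6 held with each library left out and in the model of the 8 libraries alone, and 9 without LowAhR+AD replicate 1. Its summed level was 177, 204, 303 and 95.1 CPM in LowAhR and 667, 6494, 11424 and 4028 CPM in LowAhR+AD. Most of this sum came from stefins, small cysteine protease inhibitors that keratinocytes can make as well. BC100530 was at 35.8, 42.0, 80.9 and 12.2 CPM against 390.1, 2973, 6346 and 1817 CPM (6.08 ± 0.77, adjusted p = 0.000168), and Stfa3 at 44.2, 76.8, 148 and 13.6 CPM against 66.9, 574, 3318 and 399.7 CPM (3.95 ± 0.88, adjusted p = 0.00812, and 0.0617 in the model of the 8 libraries alone). The groups overlapped for Stfa3. Both had their highest level in treated replicate 3 and their lowest in treated replicate 1. BC117090, a stefin gene outside the list, rose from 3.52, 0.640, 5.59 and 1.31 CPM to 58.8, 266, 558 and 178 CPM (6.58 ± 0.82, adjusted p = 0.000166). The stefin genes are near-identical copies, so their split is uncertain. The defining markers of neutrophils were low: Csf3r reached 2.57 CPM at most in LowAhR+AD and 0.781 CPM in LowAhR, and Retnlg spanned 1.31 to 21.2 CPM in LowAhR+AD and 2.86 to 13.6 CPM in LowAhR. Without LowAhR+AD replicate 1 the leukocyte genes Fpr1, Fpr2, Clec4d and Cxcr2 were called higher, with log2 fold changes of 8.1, 3.66, 3.51 and 3.93. Csf3r and Retnlg were not called in that refit (2.55 and 0.29). Whether the groups overlapped for Fpr1, Fpr2 and Clec4d is not given here. The part of neutrophils in the list's rise was not tested.

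Some markers of resident immune cells were lower. The MHC class II list had 0 of 10 members called higher and 3 lower, with all 10 fold changes negative and a median of -1.64. Its summed level was 3502, 3959, 4784 and 4570.1 CPM in LowAhR and 372, 715, 2269.6 and 1357 CPM in LowAhR+AD, without overlap. Cd74, the invariant chain that escorts class II molecules, was at 1048, 1076, 1267 and 974 CPM against 153, 162, 426 and 306 CPM (-2.06 ± 0.42, adjusted p = 0.00436). H2-Ab1 went from 615, 661, 842 and 682 CPM to 124, 91.7, 290.0 and 173 CPM (-2.04 ± 0.44, adjusted p = 0.00635), and H2-DMa, which helps to load peptides, from 71.2, 87.4, 117 and 78.6 CPM to 16.3, 10.2, 25.1 and 16.9 CPM (-2.37 ± 0.38, adjusted p = 0.00105). All 3 calls held with each library left out, and 4 and 6 members were called without LowAhR+AD replicates 1 and 3. Cd207 (langerin), the marker of Langerhans cells, was at 11.2, 13.1, 12.2 and 7.04 CPM in LowAhR and at 0, 0.328, 2.10 and 0.562 CPM in LowAhR+AD, which did not overlap but did not pass the test (-3.84 ± 1.37, adjusted p = 0.072). It passed in the model of the 8 libraries alone (adjusted p = 0.0478), with limma voom (0.00982) and without LowAhR+AD replicate 3. Of 22 T and NK cell genes 0 were called higher and 2 lower (median -1.39): Cd3g, at 17.3, 11.3, 5.46 and 5.37 CPM against 0, 0, 0.855 and 0.321 CPM (-5.00 ± 1.13, adjusted p = 0.00855), and Cd3e, with 116 counts in all LowAhR mice and 2 in all LowAhR+AD mice, 93.9-fold lower (95% counting interval 25.4 to 784). The 2 lower calls made up 9.09% of this list, against 6.21% of all tested genes. Its median was -0.5 among genes with at least 10 counts in each of the 8 libraries. Of 15 dendritic and Langerhans cell genes 2 were called lower (13.3%) and 1 higher, and 0 of the lower calls held with each library left out. The median was -1.35, and 0.58 among genes with at least 10 counts in each of the 8 libraries. The 1 called higher, Fscn1, is an actin bundler of mature dendritic cells that other cells also make. It rose from 18.4, 8.96, 19.4 and 30.9 CPM to 180.0, 74.3, 119.9 and 119 CPM (2.66 ± 0.35, adjusted p = 0.000226). Macrophage and monocyte genes had 1 call in each direction among 19 (median -0.49).

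Type 2 and mast cell genes were mixed. Retnla, a secreted protein of type 2 macrophages that fat and dermal cells also make, fell from 1195, 1309.8, 825 and 2122 CPM to 8.01, 122, 66.7 and 106 CPM (-4.17 ± 0.79, adjusted p = 0.00318), while Chil3, often read beside it as a type 2 macrophage gene, rose as given above. The list of type 2 and itch genes had 2 of 13 members called higher and 1 lower (median -0.06), and 5 calls without LowAhR+AD replicate 1. Among mast cell, basophil and eosinophil genes 3 of 15 were called higher and 2 lower (median 0.51, 3 to 5 calls with 1 library left out, 3, 3, 3 and 3 without LowAhR replicate 1 and LowAhR+AD replicates 1, 2 and 4), and 1 of each held with each library left out. The tryptase Tpsab1 had 0 counts in LowAhR and 86 in LowAhR+AD, at least 17.7-fold higher, with 1.14, 2.38, 1.71 and 1.61 CPM in the treated mice. Its mean was 2.28 CPM in Cont and 2.00 CPM in LowAhR+AD+BJ (log2 fold change -0.18, adjusted p = 0.94). LowAhR was thus the only group without counts. Tpsb2, a relative of Tpsab1, was at 113, 113, 196 and 90.8 CPM against 435, 148, 244 and 359.6 CPM (1.21 ± 0.32, adjusted p = 0.0209). Its call was lost without LowAhR replicates 1 or 2 or LowAhR+AD replicates 1 or 4 (adjusted p up to 0.0627) and in the model of the 8 libraries alone (0.0804). The highest LowAhR mouse lay above treated replicate 2. Ear2, a ribonuclease of eosinophils and macrophages, fell from 83.1, 72.2, 90.0 and 84.0 CPM to 0, 5.58, 11.3 and 7.87 CPM (-3.73 ± 0.98, adjusted p = 0.0196, and 0.051 without LowAhR+AD replicate 2). Ccl27a, the chemokine by which keratinocytes call skin T cells, fell from 1895, 2139, 1638 and 753 CPM to 729, 315, 477 and 456 CPM (-1.70 ± 0.34, adjusted p = 0.00408).

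Of 15 genes of prostaglandins and leukotrienes 3 fell and 1 rose (median -0.47), and all 4 calls held with each library left out and in the model of the 8 libraries alone. Ptgs1 (cyclooxygenase 1) was at 94.3, 80.0, 109.7 and 58.1 CPM in LowAhR and at 13.7, 22.1, 27.4 and 11.7 CPM in LowAhR+AD (-2.19 ± 0.27, adjusted p = 0.000168). Hpgds, which makes prostaglandin D2, went from 81.3, 99.5, 99.0 and 48.2 CPM to 10.2, 31.6, 42.5 and 17.1 CPM (-1.69 ± 0.38, adjusted p = 0.00805), and Hpgd, which breaks prostaglandins down, from 91.6, 58.2, 38.9 and 26.9 CPM to 6.03, 14.9, 22.9 and 10.4 CPM (-1.99 ± 0.42, adjusted p = 0.0052). Pla2g4e, a phospholipase, rose from 15.3, 13.4, 15.9 and 19.1 CPM to 27.9, 65.3, 26.7 and 60.8 CPM (1.50 ± 0.35, adjusted p = 0.0102, and 0.0517 with limma voom). Complement genes had 0 of 13 members called higher and 3 lower (median -0.98, 1 to 3 calls with 1 library left out, 1 and 1 without LowAhR replicates 2 and 3). Of these, C7 alone held with each library left out, at 1.49, 12.5, 7.16 and 8.95 CPM against 0, 0.574, 0.389 and 0 CPM (-4.91 ± 1.25, adjusted p = 0.0161, and 0.052 with limma voom and sample quality weights). Class I antigen presentation had 1 of 15 members called, the interferon-stimulated genes 1 of 26 and STAT and SOCS genes 1 of 16, all lower, with medians of -0.33, -0.28 and 0.12. These shares lay near or below the 6.21% of all genes.

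In the dermis, a few matrix genes of repair rose and some genes of the resting dermis fell. Tnc (tenascin C), a matrix protein of healing and inflamed skin, was at 4.06, 0.256, 3.12 and 8.95 CPM in LowAhR and at 171, 262, 57.3 and 401 CPM in LowAhR+AD (5.75 ± 0.90, adjusted p = 0.000943, and 0.0696 with limma voom). Col12a1, a collagen that decorates other fibrils, went from 3.11, 4.35, 2.47 and 3.46 CPM to 52.7, 30.0, 29.1 and 42.6 CPM (3.52 ± 0.43, adjusted p = 0.000148). Both were low in every LowAhR mouse. Inhba, the subunit of activin A, was at 3.25, 0, 1.56 and 2.98 CPM against 48.6, 11.1, 11.9 and 20.7 CPM (3.56 ± 0.76, adjusted p = 0.00588, and 0.0569 with limma voom, and 2.89 ± 0.70 without LowAhR+AD replicate 1). The list of matrix activation had 4 of 17 members called higher and 0 lower (median 0.67), and the 4 calls held with each library left out, while 6 were called with DESeq2 and 1 with limma voom. Its median was 0.03 among genes with at least 10 counts in every library, 1.18 without LowAhR replicate 3 and 1.23 with thinned counts. Timp1, an inhibitor of matrix proteases, rose from 4.60, 0.640, 7.81 and 8.47 CPM to 65.3, 58.3, 33.3 and 92.0 CPM (3.53 ± 0.72, adjusted p = 0.00456), whereas Timp4 fell from 53.0, 29.8, 39.8 and 38.4 CPM to 7.56, 3.12, 2.88 and 17.1 CPM (-2.39 ± 0.61, adjusted p = 0.0171).

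Among 21 collagen and fibroblast genes 2 were called higher and 4 lower (median -0.01, and -0.64 without LowAhR+AD replicate 3). Dpt (dermatopontin), a fibroblast protein that binds decorin, fell from 1138, 1319, 1529 and 1054 CPM to 68.6, 301, 442 and 327 CPM (-2.15 ± 0.41, adjusted p = 0.00313). Col17a1, the collagen that anchors basal keratinocytes, was at 222, 218, 136 and 169 CPM against 46.2, 88.5, 60.7 and 74.2 CPM (-1.47 ± 0.24, adjusted p = 0.00106). That fall stood beside the rises of Krt5 and Krt14, which the same basal cells carry. Col1a1, the main dermal collagen, was at 6047, 13459, 6355 and 4689.9 CPM in LowAhR and at 2455, 1844, 5036 and 1583 CPM in LowAhR+AD (-1.48 ± 0.42, adjusted p = 0.0268). The groups overlapped at treated replicate 3, and the call was lost without LowAhR replicate 2, LowAhR+AD replicate 2 or LowAhR+AD replicate 4 (adjusted p up to 0.124) and in the model of the 8 libraries alone (0.0893).

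The largest falls over whole lists were in muscle and fat. All 20 tested skeletal muscle genes were called lower, against 6.21% of all genes, with a median of -2.75 (13 to 19 calls with 1 library left out, 13 without LowAhR replicate 3). Their summed level was 18017, 19243, 37534 and 34875 CPM in LowAhR and 6429, 3871, 726 and 6398 CPM in LowAhR+AD, with replicate 3 the lowest of all. Tnnc2, a fast troponin, went from 2764, 2752, 3859.8 and 4274 CPM to 447, 397, 76.1 and 665 CPM (-3.11 ± 0.51, adjusted p = 0.0011). Of the 20 calls 13 held with each library left out, 18 without LowAhR+AD replicate 1 and 12 in the model of the 8 libraries alone. The adipocyte list had 12 of 17 members called lower and 0 higher, with a median of -1.89, and 12, 9 and 8 of these calls held without LowAhR+AD replicate 1, with each library left out and in the model of the 8 libraries alone. Its sum was 14737, 11100.0, 10574 and 11533 CPM in LowAhR and 741, 3043, 3097 and 4754 CPM in LowAhR+AD, with replicate 1 the lowest. Car3, a carbonic anhydrase abundant in fat and muscle, was at 895, 745, 1015 and 1332 CPM against 10.8, 81.7, 92.3 and 88.2 CPM (-3.87 ± 0.59, adjusted p = 0.000773), and Lpl, the lipase that feeds fat cells, at 1390.3, 1437, 1629 and 1239.7 CPM against 216, 358, 404 and 549.6 CPM (-1.90 ± 0.29, adjusted p = 0.000773). Both layers lie under the dermis, and whether the pieces of skin were cut to the same depth was not tested. Computing the library sizes without muscle, follicle and fat genes left 1839 of the 1876 calls in place.

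The sebaceous gland list had 4 of 14 members called lower and 0 higher (median -0.20). Scd3, a desaturase that marks sebaceous cells, was at 294, 416, 309 and 298 CPM in LowAhR and at 7.33, 13.3, 28.4 and 9.16 CPM in LowAhR+AD (-4.50 ± 0.48, adjusted p = 0.000115). Scd1, its widely expressed relative, went from 3871, 4731, 3670.5 and 1997 CPM to 1040.0, 675, 564 and 853 CPM (-2.19 ± 0.28, adjusted p = 0.000201), and Acsbg1, which activates fatty acids, from 80.5, 96.5, 62.2 and 43.6 CPM to 22.0, 27.7, 37.5 and 22.3 CPM (-1.37 ± 0.27, adjusted p = 0.00355). These 3 calls held with each library left out and in the model of the 8 libraries alone. Plin2, a lipid droplet protein that many cells make, was not called, at 1103, 1126, 939 and 493 CPM against 655, 1054, 537 and 1234 CPM with overlap (-0.07 ± 0.35, adjusted p = 0.919).

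Hair follicle genes varied widely among LowAhR mice, and how many were called differed between tests. The hair shaft keratins summed to 1656, 18.0, 342 and 5998 CPM in the 4 LowAhR mice and to 2293, 18769, 9972 and 12593 CPM in the 4 LowAhR+AD mice. LowAhR replicate 4 was above treated replicate 1, and LowAhR replicate 2 had almost none. All 13 tested had a positive fold change, with a median of 2.35, and 1 was called (0 to 7 calls with 1 library left out, 0, 0, 7, 3 and 0 without LowAhR replicates 1, 3 and 4 and LowAhR+AD replicates 1 and 2, 9 with limma voom and 12 with sample quality weights). The keratin-associated proteins, the matrix around these keratins, had a median of 1.97 and 3 of 49 called (0 to 20 calls with 1 library left out, 0, 1, 0, 20, 5, 0 and 1 without LowAhR replicates 1, 2, 3 and 4 and LowAhR+AD replicates 1, 2 and 3, 10 with limma voom and 40 with sample quality weights). Of the 11 genes of the inner root sheath and companion layer 1 was called, against 6 and 9 in the latter 2 fits. Among the 20 regulators of follicle growth 6 were called higher and 0 lower (median 1.36, 2 to 8 calls with 1 library left out, 3, 2 and 2 without LowAhR replicates 1, 2 and 3), of which 4 held without LowAhR+AD replicate 1 and 1 with each library left out. That 1 was Sox9, a transcription factor of follicle stem cells and the outer root sheath, at 88.3, 40.3, 73.6 and 220.4 CPM in LowAhR and at 1526, 391, 274 and 442 CPM in LowAhR+AD (2.64 ± 0.52, adjusted p = 0.00391). Treated replicate 1 was far above the other 3, and without it the fold change was 1.81 ± 0.39 (adjusted p = 0.00671). Krt75, a keratin of the companion layer, rose from 50.3, 27.3, 32.0 and 171 CPM to 442, 295, 215 and 288 CPM (2.14 ± 0.49, adjusted p = 0.00932, and 0.0525 in the model of the 8 libraries alone).

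**Figure D3:**
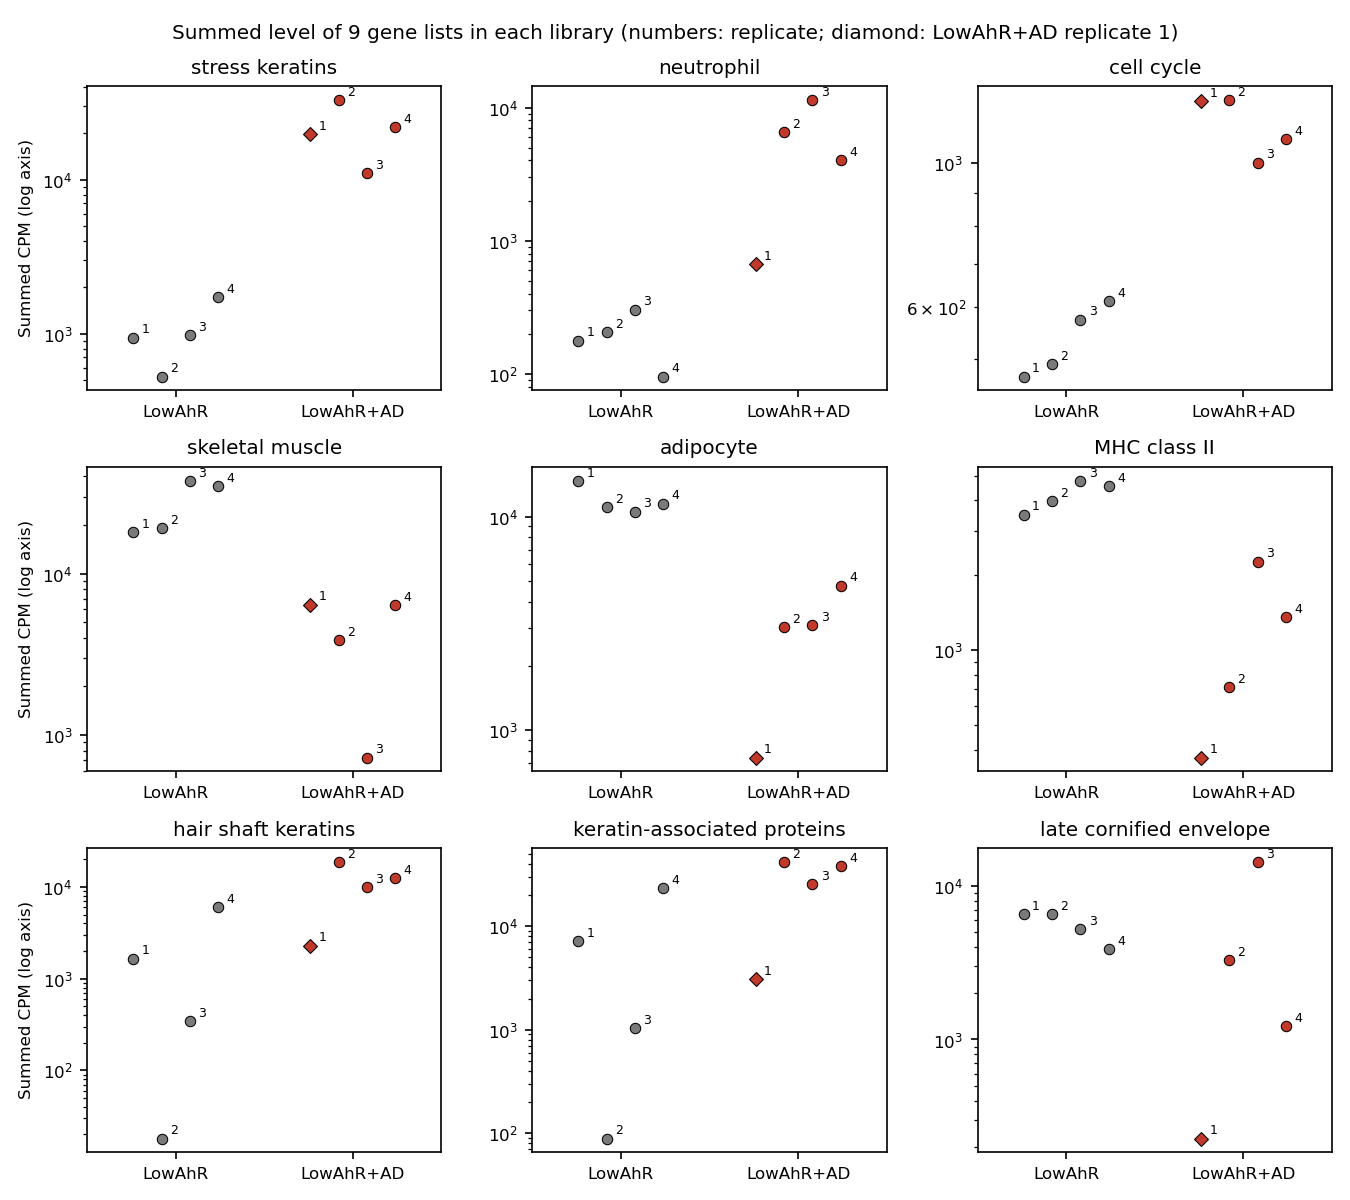
Summed level of 9 gene lists in each library, in CPM on a log axis, for LowAhR (grey) and LowAhR+AD (red), with replicate numbers beside the points and LowAhR+AD replicate 1 as a diamond. Stress keratins, neutrophil, cell cycle, skeletal muscle, adipocyte and MHC class II sums do not overlap between the groups, whereas both hair lists and the late cornified envelope list do.

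For the AhR itself, its partners and its targets, 1 of 10 tested genes was called, and it was lower (median 0.06, 1 to 3 calls with 1 library left out, 3 without LowAhR+AD replicate 3). This was Aldh3a1, an aldehyde dehydrogenase induced by AhR ligands, at 114, 101, 126 and 78.0 CPM in LowAhR and at 14.3, 27.5, 43.1 and 21.7 CPM in LowAhR+AD (-1.97 ± 0.42, adjusted p = 0.00566). Ahr was at 32.2, 32.3, 27.7 and 20.9 CPM against 4.43, 19.8, 14.8 and 18.2 CPM, which did not overlap but did not pass the test (-0.98 ± 0.37, adjusted p = 0.0888). Cyp1a1, the classic target enzyme, was at 6.76, 3.84, 7.03 and 5.49 CPM against 6.94, 11.4, 3.11 and 7.87 CPM, with overlap (0.34 ± 0.53, adjusted p = 0.723). The oxidative stress targets of NRF2 had 4 of 19 members called higher and 2 lower (median 0.52, 2 to 7 calls with 1 library left out, 2, 3 and 3 without LowAhR replicates 2 and 3 and LowAhR+AD replicate 4), and 0 of the higher calls held with each library left out. Sqstm1, an autophagy adaptor, was 1 of the lower ones, at 393, 376, 429 and 305 CPM against 215, 236, 190.0 and 225 CPM (-0.80 ± 0.18, adjusted p = 0.00889, and 0.0597 in the model of the 8 libraries alone). Gsta4, a glutathione S-transferase that clears lipid aldehydes, rose from 33.7, 13.4, 17.3 and 7.64 CPM to 81.5, 269.7, 42.5 and 140.1 CPM (2.89 ± 0.61, adjusted p = 0.00584), in a family of 21 with 2 called higher and 3 lower (median -0.93, 3 to 6 calls with 1 library left out, 3 without LowAhR+AD replicate 2).

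Retinoid genes changed at several steps. Crabp2, which carries retinoic acid to the nucleus, rose from 115, 113, 116 and 88.2 CPM to 190.3, 354, 155 and 403 CPM (1.35 ± 0.31, adjusted p = 0.00996). Lrat, which stores retinol as esters, went from 1.62, 3.20, 0.650 and 2.86 CPM to 4.96, 22.4, 11.7 and 18.1 CPM (2.76 ± 0.58, adjusted p = 0.00566, and 0.081 with limma voom). In contrast Aldh1a1, which makes retinoic acid, fell from 236, 226, 165 and 159 CPM to 17.3, 22.0, 29.1 and 30.4 CPM (-2.99 ± 0.38, adjusted p = 0.000168). This carrier and this storage enzyme thus rose while Aldh1a1, 1 enzyme of synthesis, fell. The whole list had 3 of 19 members called higher and 2 lower (median 0.13), and all 5 held with each library left out.

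Cont and LowAhR+AD+BJ mice gave a comparison that shares no library with the one above, although there DNCB, the diet and BJIKT differed together and cannot be told apart. Library totals differed too, at 7080508 to 8051425 counts in Cont and 10614393 to 12999055 in LowAhR+AD+BJ, without overlap. Depth was thus higher with DNCB in both comparisons. With counts thinned to the smallest library 1869 genes were called between LowAhR+AD and LowAhR and 2946 between LowAhR+AD+BJ and Cont. With all counts 2949 genes were called between LowAhR+AD+BJ and Cont (19.9%), 1669 higher (11.2%) and 1280 lower (8.62%). Of the 1876 genes called between LowAhR+AD and LowAhR, 882 were called the same way there, which is 47.0% of the first set and 29.9% of the second. Another 6 were called in opposite directions. Of the 1876, 91.0% had the same sign in both, against 67.0% of all tested genes. Krt6a had log2 fold changes of 5.41 and 6.23 in the 2 comparisons, Saa3 of 8.20 and 9.83, Tnc of 5.75 and 6.47, Il6ra of -2.64 and -3.17, and Ptgs1 of -2.19 and -2.46. Other groups of genes stood further apart: 20 of 20 muscle genes were called lower between LowAhR+AD and LowAhR and 4 of 20 between LowAhR+AD+BJ and Cont, and Retnla had log2 fold changes of -4.17 and -0.56. Of the 49 keratin-associated proteins, 3 and 49 were called higher, and the number of calls between LowAhR+AD and LowAhR became 20 without LowAhR replicate 4, 10 with limma voom and 40 with sample quality weights. The difference between the 2 changes was tested as an interaction in edgeR. It called 0 of 14854 genes, with a lowest adjusted p of 0.0504 and 2373 genes at an unadjusted p under 0.05, so no gene was shown to change differently in these comparisons.

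**Figure D4:**
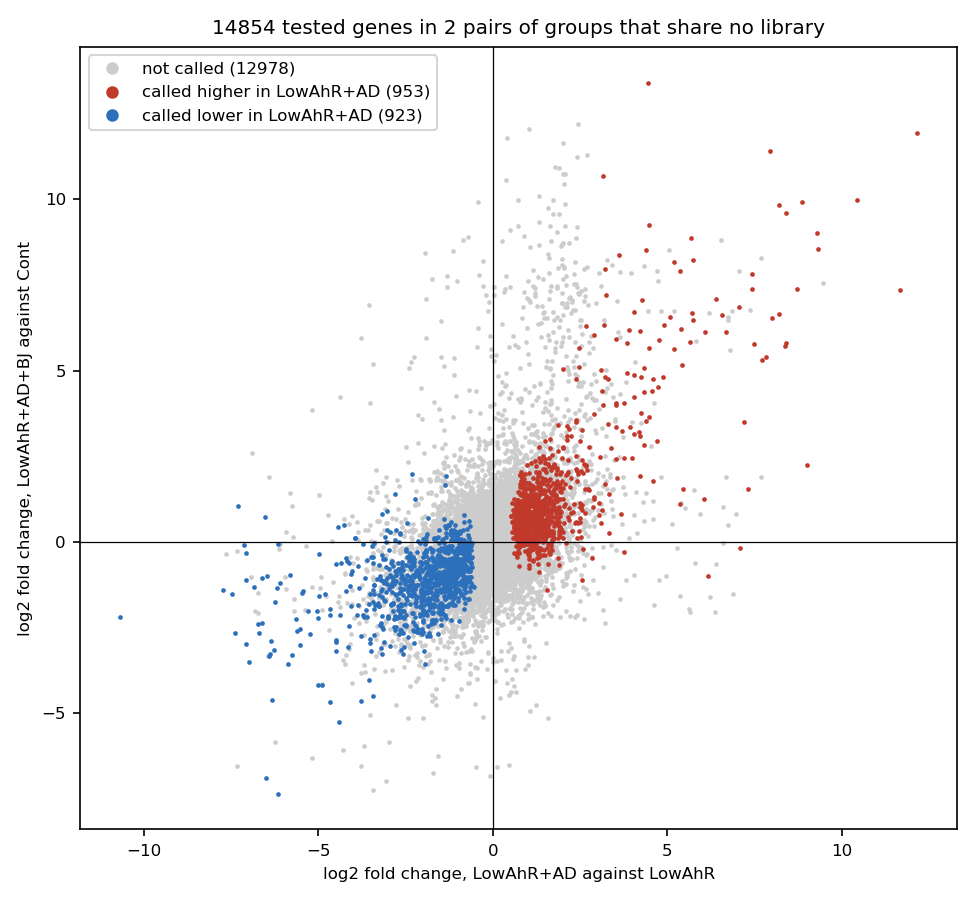
Log2 fold change of each of the 14854 tested genes between LowAhR+AD and LowAhR (horizontal axis) and between LowAhR+AD+BJ and Cont (vertical axis), with genes called higher in the first comparison in red (953), lower in blue (923) and not called in grey (12978). Of the coloured points 91.0% lie in the quadrants where both changes have the same sign.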

How the data were processed

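Skin RNA of 16 mice was read as QuantSeq 3′ libraries, 1 per mouse. The authors deposited raw read counts per gene, as whole numbers, which the submitters' processing notes credit to Bowtie2, bedtools and the mouse build mm10. Their versions, and the handling of reads that match several copies of a gene, are not given in the sources used here. All 23282 rows were read, and 14854 genes passed the filter of edgeR (filterByExpr, minimum count 10, minimum total 15). Groups came from the treatment labels.

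One quasi-likelihood model (edgeR 4.0.16, R 4.3.3, TMM factors) held the 4 groups. It gave LowAhR+AD against LowAhR, LowAhR+AD+BJ against Cont and their difference, with Benjamini-Hochberg adjustment over all tested genes. A prior count of 2 entered the log2 CPM values correlated between same-numbered replicates, not the fold changes, which used the default of edgeR. The model was tested on simulated data. Alternatives covered DESeq2 1.42.0, limma 3.58.1 voom with equal or quality-weighted samples, RLE or upper-quartile factors, other filters, thinned counts, library sizes without muscle, follicle and fat genes, the 8 libraries alone, a replicate block and each library left out.

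The samples described, the 56 gene lists and the genes named were chosen with earlier results of these data known. By rule the text could name the 10 largest rises and falls, up to 4 called members of each list by mean level with 1 in the other direction and 1 not called, the AhR genes and all CXC chemokines. From these, genes whose call held with each library left out were preferred, so the share of stable calls among them is not that of all calls. Btc, Il20ra, Fpr1, Fpr2 and Clec4d lie outside the rule, and Cd207, Csf3r, Retnlg and Ms4a1 are defining cell type markers. Some genes that the rule allows are not reported here. Promoter windows came from RefSeq (GRCm38.p6). The counts of pairs of libraries within a group differed by far more than sampling noise (chi-square per degree of freedom 16.4 or more), so each counted as 1 sample. Where nothing says that mice came from separate cages or cohorts, p-values measure the spread between these mice.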

Additional observations from a re-analysis of the deposited data

Results flagged for a closer look

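Of 200 sets of 4 samples that were checked (the printed levels of genes, lists and library totals in LowAhR and in LowAhR+AD), 11 held 1 sample far from the other 3 by Dixon's ratio (5.5%), where chance gives about 1 in 20.

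In the treated mice, LowAhR+AD replicate 1 stood low for Cgn, at 5.11 CPM against 15.6 to 16.4 in the other 3, for Btc, at 0.0763 CPM against 4.26 to 6.24, and for Car3, at 10.8 CPM against 81.7 to 92.3. LowAhR+AD replicate 3 stood low for Krt17, at 1299.7 CPM against 4054 to 4923, and was the 1 treated mouse with any Il22ra2, at 1.55 CPM. LowAhR+AD replicate 4 stood high for Krt14, at 4193 CPM against 3269 to 3353. All 6 levels lay on the same side of the LowAhR range as those of the other treated mice.

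In the untreated mice, LowAhR replicate 4 stood high for Tgm3, at 75.5 CPM against 20.6 to 21.6, and low for Crabp2, at 88.2 CPM against 113 to 116. LowAhR replicate 2 stood high for Scd3, at 416 CPM against 294 to 309, and low for Hbegf, at 4.61 CPM against 10.8 to 11.9. LowAhR replicate 3 stood high for Il1b, at 20.9 CPM against 5.28 to 6.66. Of these 11 genes, Il1b and Il22ra2 were those whose call was lost with some library left out.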

How the results depend on the processing

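Each number of called genes was recomputed under every alternative. The 1876 genes called between LowAhR+AD and LowAhR became 765 with the 8 libraries alone, of which 755 were among the 1876, and ranged from 1128 to 2015 with 1 library left out. In the other alternatives they numbered 1435 (change of at least 2-fold) to 2673 (DESeq2). Over all alternatives the share of rises was 42.0% to 54.4%, and 0 of the 1876 genes turned in sign. Between LowAhR+AD+BJ and Cont 2949 genes became 4508 with limma voom and sample quality weights, and the 882 shared calls became 1513 with those weights and 506 with the 8 libraries of each pair alone. The cause was not tested. Of 56 list medians 27 to 33 were positive with a library left out, and 17 moved by more than the spread between replicates under some alternative.

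Replicate numbers did not pair the mice: same-numbered deviations from the group means correlated at -0.0411 to 0.0163, and 0 of 4 samples correlated best with their own number. A replicate block gave 1689 calls and 2806 between LowAhR+AD+BJ and Cont. Of 90 called genes that the text names, apart from Fpr1, Fpr2 and Clec4d, it lost Ereg (adjusted p = 0.053) and Il1b (0.0505), and it called Cd207 (0.0263).

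Of these 90 genes 79 held with each library left out, and the fold change of 33 moved by over 1.5 times when some library was left out. The fold changes that turned in sign all belonged to genes that were not called. With limma voom Pf4 was at -0.253, and with sample quality weights Cxcl13 was at 0.746 and Plin2 at 0.0474. With 1 library left out Pf4 ranged from -0.144 to 0.818, Cxcl9 from -1.03 to 0.238, Cxcl10 from -1.25 to 0.253, Cxcl12 from -0.163 to 0.401, Cxcl13 from -0.834 to 0.19 and Plin2 from -0.289 to 0.1. Genes at a few CPM, such as Tpsab1 and Cxcl2, rest on few counts.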
